A study of Drosophila melanogaster with 4 samples.

Results

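The chemoreceptor genes of Drosophila melanogaster were examined in open-chromatin maps of the developing wing. They were taken as all protein-coding genes of the RefSeq gene table whose symbol begins with Or, Gr or Ir followed directly by a digit, which gave 179 genes out of 13946 protein-coding genes placed on a chromosome arm. The set held 59 Or, 60 Gr and 60 Ir genes. A gene was counted as having a peak in a library when the summit of a deposited peak lay in its body or within 1 kb of it.

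Or genes encode odorant receptors, seven-transmembrane proteins that form ligand-gated channels with the coreceptor Orco in olfactory neurons. Gr genes encode gustatory receptors for sugars, bitter compounds and carbon dioxide, and Ir genes encode ionotropic receptors, relatives of glutamate receptors that sense acids, amines, salts, temperature and humidity. The antenna and mouthparts carry most of these neurons, but the fly wing also has them, in taste bristles along its anterior margin. Many of these receptors are each used by a small number of neurons, while coreceptors such as Ir25a are used more widely.

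Chromatin was measured by FAIRE-seq, in which fixed chromatin is sheared and DNA free of nucleosomes is recovered from a phenol extraction for sequencing. The Osa-deGrad wings (2 libraries) carried nub-GAL4, UAS-Nslmb-vhhGFP and osa-GFP, and the control wings (2 libraries) carried UAS-Nslmb-vhhGFP and osa-GFP without a driver. All animals were female pupae with osa-GFP on both homologues. Osa is an ARID-domain subunit of SWI/SNF, the Brahma chromatin remodeling complex. UAS-Nslmb-vhhGFP is the deGrad transgene, an F-box fragment fused to an anti-GFP nanobody that directs GFP-tagged proteins to degradation, and nub-GAL4 drives it in the wing. Animals were raised at 23 °C, moved to 29 °C as wandering larvae, and dissected at 24 to 36 h after puparium formation, with the wings of each library, 40 in number, pooled. Whether the replicates were separate crosses is not given, so their spread may be technical.

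The lists held 13959 and 17048 peaks in the Osa-deGrad libraries and 13953 and 18007 in the control libraries, so replicate 2 had the longer list in both genotypes. Read counts and depths are unknown from these files, and a site may lack a peak because it fell slightly short of the calling threshold. All 6 wing marker genes examined (nub, vg, sd, ap, bs and dpy) had a peak in all 4 lists, against 45.5% of all protein-coding genes. They held from 2 (ap) to 19 (dpy) peaks per list, and their length was not taken into account. In whole wings, a site closed in every cell cannot be told apart from a site open in too few cells to give a peak.

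Few receptor genes had a peak in the wing. Of the 179 genes, 14 (7.82%, 95% Wilson interval 4.72 to 12.7) had one in Osa-deGrad 1 and 25 (14.0%, 9.64 to 19.8) in Osa-deGrad 2. In control 1 there were 19 (10.6%, 6.90 to 16.0) and in control 2 there were 28 (15.6%, 11.0 to 21.7). Over all protein-coding genes the shares were 56.2% and 64.1% in the Osa-deGrad libraries and 51.9% and 62.7% in the control libraries. Receptor genes were thus far below the share of all coding genes in each of the 4 libraries. The Wilson intervals did not reach that share, but they cover counting error only. They also treat genes as independent, although 70 of the 179 had another receptor gene within 1 kb. Taking the lists together, 144 receptor genes (80.4%) had no peak in any list, against 31.5% of all protein-coding genes.

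**Figure D1:**
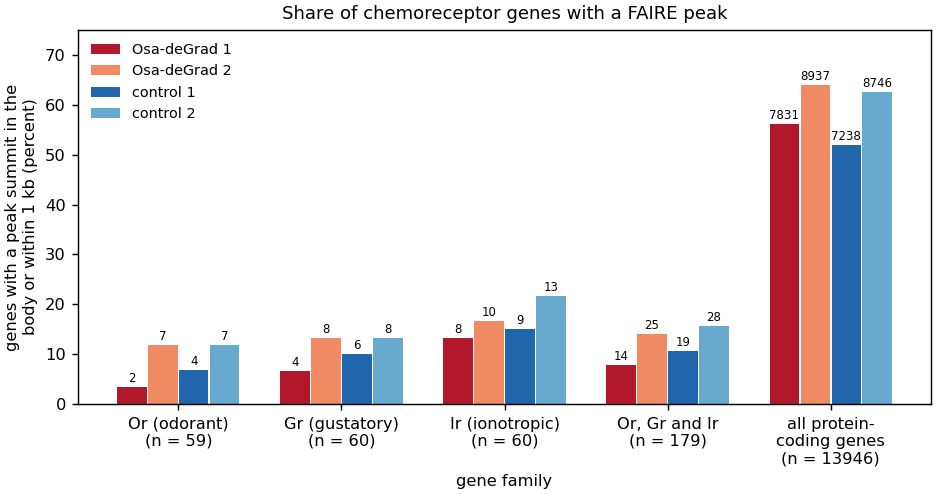
Share of genes with a peak summit in the gene body or within 1 kb, in percent, for the Or, Gr and Ir families, all 179 receptor genes and all protein-coding genes; bars are the 4 libraries and the number above each bar is the count of genes. Each family stays at or below 21.7% in every library, whereas all protein-coding genes lie between 51.9% and 64.1%.

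Odorant receptor genes had a peak at 2 and 7 of 59 genes in the Osa-deGrad libraries (3.39% and 11.9%) and at 4 and 7 in the controls (6.78% and 11.9%). Gustatory receptor genes had one at 4 and 8 of 60 genes in Osa-deGrad wings (6.67% and 13.3%) and at 6 and 8 in control wings (10% and 13.3%). For ionotropic receptor genes the counts were 8 and 10 of 60 in Osa-deGrad (13.3% and 16.7%) and 9 and 13 in control wings (15.0% and 21.7%). Ir genes had the highest share of the families in all 4 libraries, but some are far longer than the rest. Their lengths ran from 1487 bp to 104437 bp at Ir41a, while the longest Or gene had 3956 bp and the longest Gr gene, Gr28b, 7422 bp. Among genes of at most 3000 bp, 9 of 49 Ir genes (18.4%) had a peak in at least 1 list, beside 10 of 53 Gr genes (18.9%) and 9 of 55 Or genes (16.4%). With a peak in all 4 lists were 4 of these Ir genes (8.16%), 3 of the Gr genes (5.66%) and 2 of the Or genes (3.64%). Ir genes thus came first among short genes by peaks in all 4 lists but not by peaks in at least 1 list.

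Gene length was taken into account by comparing genes of like size and by counting summits per length. The receptor genes' median length was 1691 bp, against 2178 bp for other protein-coding genes. Among genes of at most 3000 bp, 9 of 157 receptor genes (5.73%) had a peak in all 4 lists, against 32.7% of the 8631 coding genes of that size, 28 (17.8%) had one in at least 1 list, against 58.3%, and 129 (82.2%) had none, against 41.7%. Per length of merged gene window, receptor genes held 2.4 and 4.40 summits per 100 kb in Osa-deGrad libraries, against 12.5 and 15.4 for all protein-coding genes. In control libraries they held 3.60 and 4.67, against 12.3 and 15.9.

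Most receptor genes lay more than 1 kb from any called summit. Beyond 5 kb were 59.8% and 49.7% of them in the Osa-deGrad libraries and 53.1% and 47.5% in the controls. For other protein-coding genes those shares ran from 19.5% to 26.5%. The median distance from a receptor gene to the nearest summit was 6696 and 4963 bp in the Osa-deGrad libraries and 6173 and 4608 bp in the controls. For other protein-coding genes it was 367 and 80 bp in the Osa-deGrad libraries and 728 and 127 bp in the controls. Odorant receptor genes were the farthest family by median in all 4 libraries, with 10183 and 7040 bp in Osa-deGrad, against 9109 and 7378 bp in control wings. In every list, 43 receptor genes (24.0%) lay more than 10 kb from a summit, as did 10.1% of all coding genes. The greatest distances were at the Gr36a, Gr36b and Gr36c genes, where the nearest summit of any list was 82875, 80732 and 79164 bp away. At the edge of the window, Or67b had its nearest summit at 837 and 857 bp in the Osa-deGrad libraries and at 859 bp in control 2, just inside it. Just outside, Or9a had its nearest summit at 1001 and 1005 bp in the Osa-deGrad libraries and at 1021 bp in control 2.

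**Figure D2:**
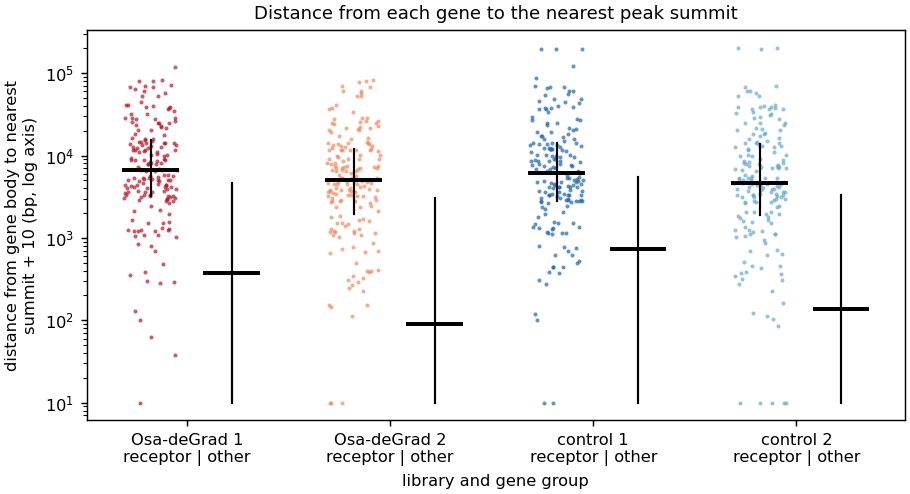
Distance in bp from the gene body to the nearest peak summit (0 inside the body), plotted as distance plus 10 on a log axis. Coloured points are the 179 receptor genes, thick black lines the medians and thin lines the quartiles of receptor genes (left) and of other protein-coding genes (right) in each of the 4 libraries; receptor medians lie between 4608 and 6696 bp, the others between 80 and 728 bp.

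Only 10 receptor genes (5.59%) had a peak in all 4 lists, against 45.5% of all protein-coding genes. They were Gr5a, Gr89a and Gr97a, the ionotropic receptor genes Ir8a, Ir31a, Ir48c, Ir60b and Ir68b, and the odorant receptor genes Or67b and Or85f. That made 3 of 60 Gr genes (5%), 5 of 60 Ir genes (8.33%) and 2 of 59 Or genes (3.39%). A further 25 genes had a peak in 1 to 3 lists, 5 of them in both replicate 2 lists alone. All 35 genes are shown in the plot of strongest peaks. Because receptor genes are short, it was asked next whether each summit belonged to the receptor gene or to a neighbour.

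Most summits at receptor genes lay in or closer to another gene. The 4 lists gave 113 peaks at receptor genes, of which 33 had their summit inside another protein-coding gene and 40 lay between genes but closer to the end of another one, or 64.6% together. The shares were 72.2% and 69.7% in the Osa-deGrad libraries and 59.3% and 60% in the controls. The other 40 lay in the receptor gene alone or had it nearest, and 12 of the 113 had their summit in a receptor gene body. The share at another gene was not counted for other coding genes. Of all 13946 coding genes, 12195 had another coding gene overlapping or within 1 kb, so the share is not shown to be particular to receptor genes. Among the 113 peaks, those at another gene were also the stronger ones, which was likewise not compared with other coding genes. By percentile rank of the authors' fold enrichment within each list, where 100 is the strongest peak, their median was 60.7 and 50.7 in the Osa-deGrad libraries and 48.9 and 61.9 in the controls. Peaks in the receptor gene alone or with it nearest had medians of 9.35 and 25.8 in Osa-deGrad, against 37.3 and 38.4 in control wings. Of the 22 peaks at receptor genes that ranked above 75, 20 lay in or closer to another gene.

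**Figure D3:**
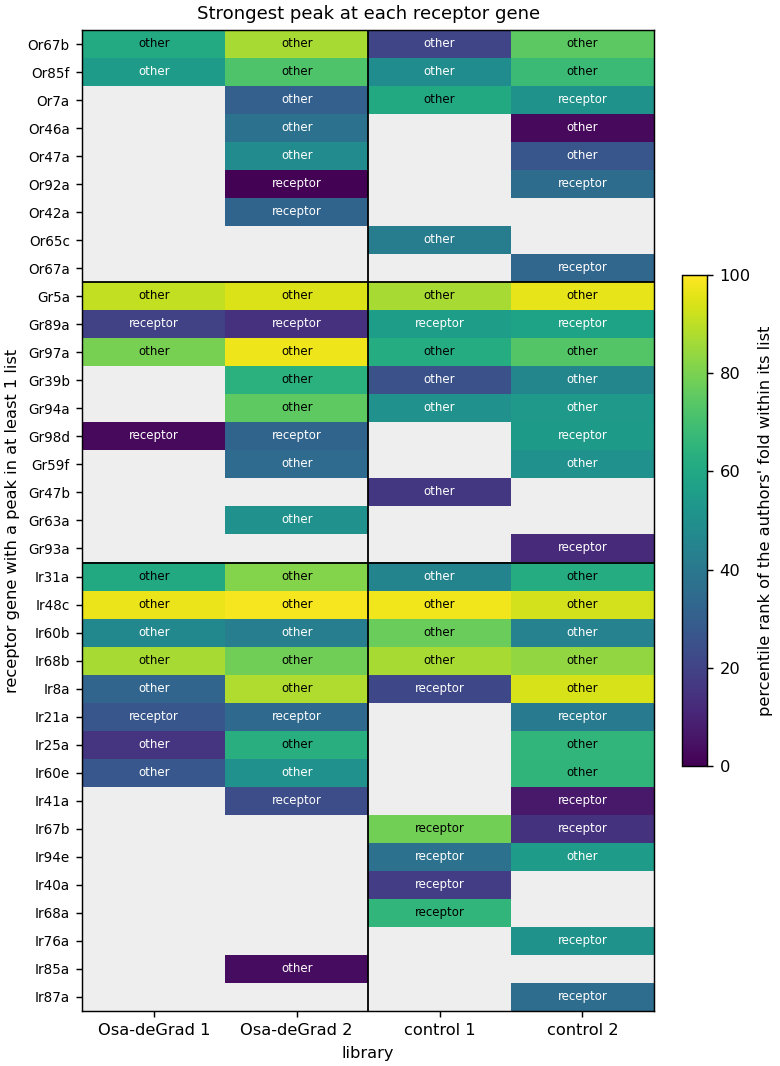
Percentile rank, within its own list, of the authors' fold enrichment of the strongest peak at each of the 35 receptor genes with a peak in at least 1 list (rows, grouped as Or, Gr and Ir) in the 4 libraries (columns); grey is no peak. The word receptor marks a summit in the receptor gene alone or nearest to it. The word other marks a summit in another coding gene, or between genes and closer to another one. In all 4 columns 10 rows are filled, and 20 of the 22 single peaks above rank 75 lay at another gene.

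Each summit was next assigned to the only coding gene that held it. Where none did, it went to the coding gene with the nearest end within 1 kb. This exclusive assignment left 5 and 7 receptor genes with a peak in the Osa-deGrad libraries (2.79% and 3.91%). In the controls it left 9 and 14 (5.03% and 7.82%). The shares over all protein-coding genes were 39.0% and 47.0% in Osa-deGrad, against 35.3% and 44.8% in control libraries. With this assignment 2 receptor genes, Gr89a and Gr97a (1.12%), had a peak in all 4 lists, against 27.3% of all protein-coding genes, and 18 (10.1%) had one in at least 1 list, against 53.9%. A peak in both control lists and in no Osa-deGrad list was then seen at 3 receptor genes, Ir67b, Ir94e and Or7a (1.68%), against 0.774% of all coding genes, and the reverse at 0, against 1.38%. Or7a joined only through the assignment. With the 1 kb window it also had an Osa-deGrad 2 peak, 761 bp away in the same region. The summit of that peak was nearer to CG10761, at 713 bp. The summits at Or7a also lay 3 to 247 bp from an end of the noncoding RNA gene lncRNA:CR45536, which this assignment left aside. Peaks at receptor genes were also counted by what lay beside the gene. Where a coding gene that was no receptor gene overlapped it or lay within 1 kb, 25 of 85 receptor genes (29.4%) had a peak in at least 1 list and 10 in all 4. Where none did, 10 of 94 (10.6%) had a peak in at least 1 list and 0 in all 4. Split by any other coding gene instead, receptor genes included, the shares were 27 of 136 (19.9%) with such a neighbour and 8 of 43 (18.6%) without, so the difference in peaks of at least 1 list was seen only in the first split. Peaks in all 4 lists numbered 10 with and 0 without such a neighbour. For all protein-coding genes the shares with a peak in at least 1 list were 72.1% with another coding gene within 1 kb and 43.7% without. Among the 70 receptor genes with another receptor gene within 1 kb, 5 (7.14%) had a peak in at least 1 list and 0 in all 4, beside 30 of the other 109 (27.5%) and 10 in all 4.

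Of the gustatory receptors, Gr5a (X, 5680617 to 5682488, dm6) encodes a sugar receptor of sweet-taste neurons. Its strongest region (5679769 to 5680201) had summits 577 and 578 bp from Gr5a in the Osa-deGrad libraries and 609 and 580 bp in the controls. The same summits lay 63 and 62 bp from the end of Tre1 in the Osa-deGrad libraries and 31 and 60 bp in the controls. Tre1 encodes a G protein-coupled receptor needed for germ cell migration. The peaks ranked at 90.7 and 94.7 in Osa-deGrad, against at 86.8 and 96.4 in control lists, high in each. A second region on the other side of Gr5a (5682719 to 5683103) was also in all 4 lists, 373 and 389 bp from Gr5a in the Osa-deGrad libraries and 368 and 361 bp in the controls. It lay between Gr5a and CG42449, whose end was nearer in Osa-deGrad 2 alone, at 363 bp. This region ranked at 3.71 and 2.21 in the Osa-deGrad lists and at 64.7 and 87.0 in the control lists, with −log10 q at 2.81 and 3.28 in Osa-deGrad, against at 10.4 and 30.4 in control lists. Both Osa-deGrad ranks were thus among the lowest of their lists and both control ranks were in the upper part of theirs. A rank places a peak among those of one library, and the signal itself was not compared between genotypes.

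Gr89a (3R, 16497817 to 16498959) is known from bitter-taste neurons. It was the one receptor gene with a single region in all 4 lists (16497402 to 16497721) whose summits were nearest to the receptor gene itself in each. The summits lay 340 and 285 bp from the gene in the Osa-deGrad libraries and 268 and 311 bp in the controls. The authors' fold was 3.85 and 3.08 in the Osa-deGrad lists and 5.55 and 5.47 in the control lists, at ranks of 19.2 and 14.4 in Osa-deGrad, against 55.6 and 58.0 in control lists. These were weak peaks in Osa-deGrad lists and middling ones in control lists. How many other regions of all 4 lists split by rank in this way, as the second Gr5a region did, was not counted. The place of Gr89a in all 4 lists depended on its weak peaks. With lists of equal length Gr89a had a peak in 3 lists, and with a −log10 q minimum of 5 in 2, both of control wings, since −log10 q was 4.68 and 4.73 in Osa-deGrad lists, against 7.79 and 13.4 in control lists. With a minimum of 10 it had a peak in 1 list. No annotated gene of any kind had an end closer to these summits than Gr89a.

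Gr97a (3R, 26965124 to 26966485) lies between Tsp97E, a tetraspanin gene, and CG5521, and its strongest peaks lay at CG5521. A region at 26966798 to 26967610 had its summits 23 and 11 bp from the end of CG5521 in the Osa-deGrad libraries, and 35 and 20 bp in the controls, at ranks of 69.8 and 97.4 in Osa-deGrad, against 49.3 and 73.4 in control lists. In the same region Osa-deGrad 1 (rank 79.4), control 1 (62.1) and control 2 (62.5) had a further peak inside CG5521. Peaks with Gr97a nearest were weaker and differed in place between libraries. A region inside the gene (26966261 to 26966467) was found in Osa-deGrad 1 (rank 9.35), Osa-deGrad 2 (48.5) and control 2 (52.2). Control 1 had instead a peak 110 bp from the gene (rank 52.1), at a place where Osa-deGrad 2 also had one, at 73 bp (rank 27.8).

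Among the ionotropic receptors, Ir8a (X, 9232726 to 9236585) encodes a coreceptor of acid-sensing olfactory neurons. Its region in all lists (9232267 to 9232570) had summits 69 and 16 bp from the end of CG12121 in the Osa-deGrad libraries and 55 and 10 bp in the controls, and 279 to 338 bp from Ir8a. The ranks were 32.7 and 88.1 in Osa-deGrad, against 15.4 and 93.9 in control lists, so they went with the replicate number and not with the genotype. A peak inside Ir8a was present in control 1 alone, at rank 21.7.

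The other 4 ionotropic receptor genes with a peak in all lists had these summits in or nearer to a neighbouring gene. Ir31a (2L, 10405565 to 10408197) had its common region 34 and 53 bp from the end shared by Ip259 and the ribosomal protein gene RpS27A in the Osa-deGrad libraries and 63 and 53 bp in the controls, at ranks of 60.7 and 81.5 in Osa-deGrad, against 45.2 and 61.9 in control lists. Ir48c (2R, 11787808 to 11789493) lies within ths, which encodes an FGF ligand. Its region (11789824 to 11790465) ranked at 97.0 and 98.8 in Osa-deGrad, against at 97.8 and 93.0 in control lists, the highest ranks at any receptor gene in 3 of the 4 lists. These summits lay inside ths and 621 to 794 bp from Ir48c.

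Ir68b (3L, 12125487 to 12127394) had its region in all lists 49 and 80 bp from the end of yps, a gene for a Y-box RNA-binding protein, in the Osa-deGrad libraries, and 38 and 74 bp in the controls. Its ranks were 87.0 and 78.3 in Osa-deGrad, against 86.9 and 83.9 in control lists, all high. Ir60b (2R, 24515685 to 24517458), known from sugar-sensing neurons of the pharynx, had peaks inside or within 52 bp of Letm1, which encodes a mitochondrial ion exchanger, at ranks of 46.6 and 42.9 in Osa-deGrad. In control lists the ranks there were 77.2 in control 1 and 38.3 and 44.5 in control 2.

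Both odorant receptor genes in all lists had their summits inside a neighbour. At Or67b (3L, 9627316 to 9629193) they lay 837 and 857 bp from the receptor gene in the Osa-deGrad libraries and 777 and 859 bp in the controls, inside Cyp40, whose annotated body overlaps that of Or67b. The ranks were 61.1 and 86.9 in Osa-deGrad, against 21.0 and 74.8 in control lists, lower in replicate 1 of each genotype. At Or85f (3R, 9398190 to 9399551) the summits lay 478 and 490 bp away in Osa-deGrad and 484 and 502 bp away in control libraries, within CG34117 and at most 24 bp from its end. The ranks there were 55.3 and 72.3 in Osa-deGrad, against 48.5 and 68.3 in control lists.

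**Figure D4:**
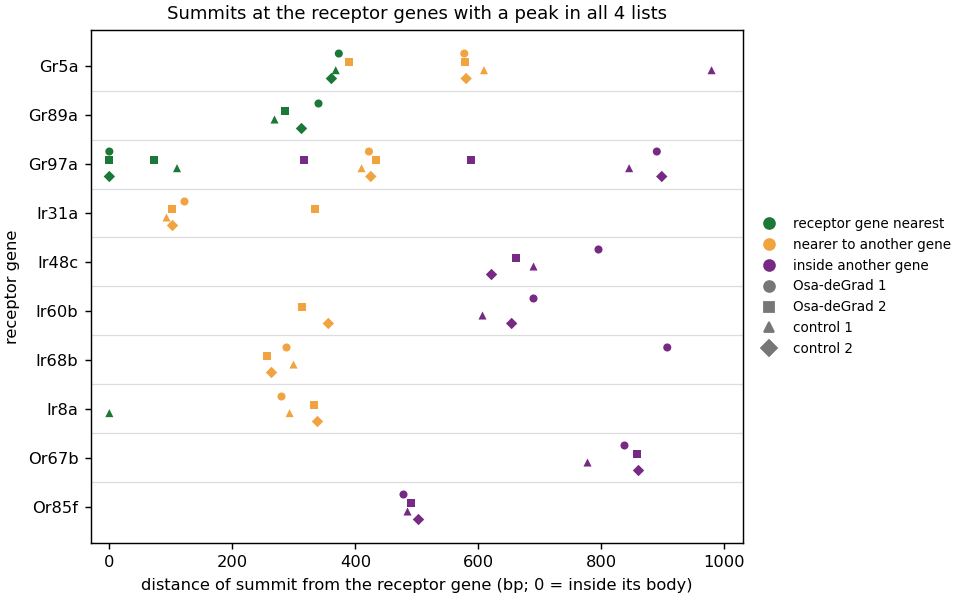
Distance in bp of each summit from the receptor gene (0 is inside its body) at the 10 receptor genes with a peak in all 4 lists; marker shape is the library and colour says whether the receptor gene was nearest, another coding gene had a nearer end, or the summit lay inside another coding gene. Summits nearest to the receptor gene are present in all 4 libraries at Gr89a and Gr97a, and the 4 libraries place most summits of a gene close to each other.

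Receptors with well-studied roles were mostly without a peak. This was not shown to be particular to them, since 144 of the 179 receptor genes (80.4%) had no peak in any list. Of the 8 sugar receptor genes, Gr5a had a peak and Gr61a and the 6 genes Gr64a to Gr64f had none in any list. The Gr64 cluster had its nearest summit of any list between 2716 bp (Gr64f) and 7160 bp (Gr64b and Gr64c, which share their annotated start and end). Among 5 receptor genes used by most bitter neurons, Gr89a had a peak and Gr32a, Gr33a, Gr39a and Gr66a had none. Of the carbon dioxide receptors, Gr21a had none, with its nearest summit at 26757 bp, and Gr63a had a peak in Osa-deGrad 2 alone, 64 bp from the end of Lamtor4. The fructose sensor Gr43a, the Gr28a and Gr28b genes and Gr68a had no peak. Among odorant receptors, the pheromone receptor genes Or47b, Or65a, Or67d and Or88a had none, nor did the food-odour receptor genes Or22a and Or42b, nor Or83a.

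The coreceptors of ionotropic receptors were split. Ir8a is described above, and Ir76b, a coreceptor in taste neurons, had no peak, with summits 3659 and 4234 bp away in the Osa-deGrad libraries and 4202 and 4245 bp away in the controls. Ir25a (2L, 4830846 to 4835300), the most widely used coreceptor, had a peak 91 and 141 bp away in the Osa-deGrad libraries and 94 bp away in control 2, but none in control 1. These summits lay 62 and 12 bp from the end of Fnta, a farnesyltransferase subunit gene, in the Osa-deGrad libraries and 59 bp in control 2. Among receptors of temperature and humidity, Ir21a, needed for cool sensing, had peaks with no other coding gene nearer, although an antisense RNA gene overlaps part of it. They were 52 and 46 bp from the gene in Osa-deGrad libraries (ranks 26.8 and 34.1), and Osa-deGrad 2 had 2 more inside it (ranks 4.8 and 9.48). Control 2 had a peak inside Ir21a (rank 40.9), and control 1 had none. Ir40a and Ir68a, both for humidity, had peaks in control 1 alone, at ranks of 18.3 for Ir40a and 3.79 and 65.9 for Ir68a. Both Ir68a summits lay inside the noncoding RNA gene lncRNA:CR44718. Ends of noncoding genes were nearer to them, at 238 and 235 bp, than Ir68a, at 520 and 849 bp. The stronger Ir68a peak belonged to a region (11236963 to 11237571 on 3L) that held peaks of all 4 lists. Outside the 1 kb window, the nearest summits to Ir68a lay at 1297 and 1065 bp in the Osa-deGrad libraries and at 1047 bp in control 2, so for Ir68a the presence in control 1 alone rests on the edge of the window. Ir93a, their partner receptor, had none, with its nearest summits at 1245 and 1173 bp in the Osa-deGrad libraries and 1172 and 1238 bp in the controls. Ir52c, Ir75a and Ir84a had no peak.

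Osa-deGrad and control wings were compared by the number of receptor genes with a peak, the question of the study being what the SWI/SNF remodeler does to wing enhancers. The number was 14 and 25 in the Osa-deGrad libraries and 19 and 28 in the controls, so the groups overlapped. The means were 19.5 ± 7.78 in Osa-deGrad and 23.5 ± 6.36 in control wings (SD, n = 2 each), a difference of -4.0 genes that was smaller than the spread within either genotype (exact permutation test over libraries, two-sided, p = 0.667; the smallest p possible with 4 libraries is 0.333). The difference was -1.0 for Or genes, -1.0 for Gr genes and -2.0 for Ir genes (exact permutation p of 1, 1 and 0.667). In each family the counts of the genotypes overlapped. The Ir difference was larger than the Osa-deGrad SD of 1.41 and smaller than the control SD of 2.83. With exclusive assignment the counts were 5 and 7 in Osa-deGrad, against 9 and 14 in control libraries, which did not overlap. The shares of all protein-coding genes were then 39.0% and 47.0% in Osa-deGrad, against 35.3% and 44.8% in control libraries, which overlapped. With this assignment the difference was -5.5 for all receptor genes and -4.0 for Ir genes. Exact permutation p was 0.333 for each, the smallest possible, so the design cannot show the difference to exceed the spread between libraries. Under other windows and thresholds the overall difference was -1.5 with 500 bp, -8.0 with 5 kb and 0.0 with a −log10 q minimum of 10. Over all protein-coding genes the number was 7831 and 8937 in Osa-deGrad, against 7238 and 8746 in control wings (exact permutation p = 0.667).

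No receptor gene had a peak in both Osa-deGrad lists and in neither control list, a pattern seen at 0.853% of all protein-coding genes. The reverse pattern was seen at 2 receptor genes, Ir67b and Ir94e (1.12%), against 0.516% of all coding genes, and a share resting on 2 genes is near that background. At Ir67b (3L, 10429689 to 10431983) the region 10428636 to 10428813 held a peak of control 1 (999 bp away, rank 29.7) and of control 2 (928 bp away, rank 14.5), and control 1 had a stronger peak 370 bp away (rank 78.8). Ir67b had a peak in 1 list only with lists of equal length, with a 500 bp window or with a −log10 q minimum of 5. At Ir94e (3R, 23405509 to 23407402) the region 23407723 to 23407905 held a peak of control 1 (429 bp away, rank 37.3) and of control 2 (444 bp away, rank 12.2). Control 2 had another 908 bp away, nearer to CG4374 (rank 55.2). Osa-deGrad 1 had its nearest summit to Ir94e at 1048 bp, just outside the window, and Ir94e had a peak in 3 lists with a 2 kb window or by overlap of the whole peak.

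Other genes of chemosensation and of sensory organs were counted by the same window. None of Orco, Snmp1, Snmp2 and lush, which encode the odorant coreceptor, a pair of sensory neuron membrane proteins and a pheromone-binding protein, had a peak in any list. Odorant-binding protein genes had a peak in all 4 lists at 7 of 51 genes (13.7%), pickpocket channel genes, some of which act in taste neurons, at 4 of 29 (13.8%), and genes for CheA and CheB proteins at 4 of 20 (20%). Over all protein-coding genes the share was 45.5%. Assigned to the only holding or nearest coding gene, the counts of these 3 lists became 3, 0 and 0, against 27.3% of all coding genes. Of the 7 opsin genes, Rh4 had a peak in all lists. Regulators of sensory organs and of receptor choice had one at 5 of 13 genes (38.5%), namely ct, lz, pdm3, Poxn and pros, a share near the 45.5% of all coding genes. The regulators ato and ac had a peak in 3 lists and ase in 2. Poxn, which sets taste against touch bristle fate, lost it with the exclusive assignment. The proneural gene sc had a peak in both Osa-deGrad lists (1 each) and in neither control list, the pattern of 0.853% of all coding genes, but no list had a summit held by sc alone or nearest to it. The genes acj6, amos, onecut and sens had no peak in any list.

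**Figure D5:**
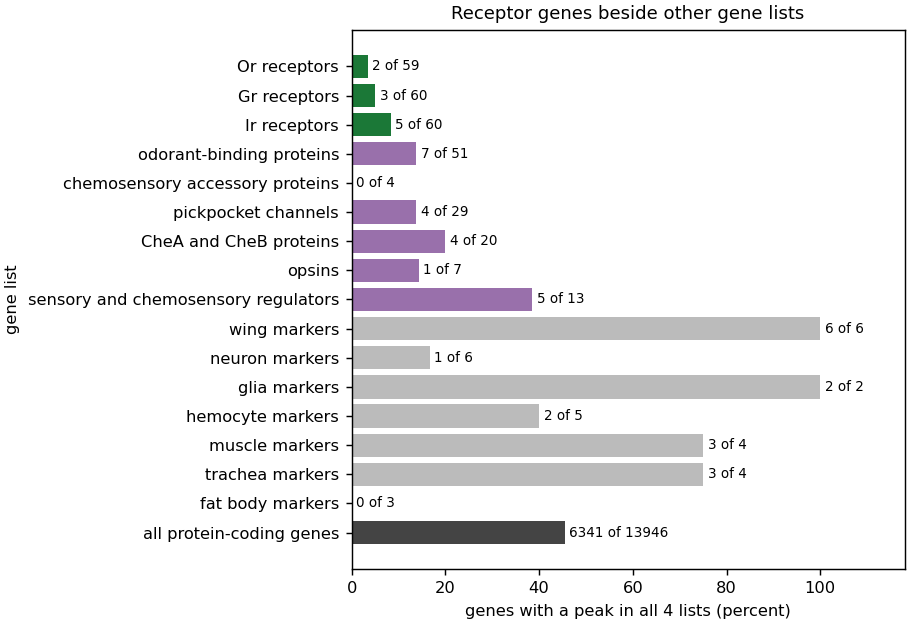
Percent of genes with a peak in all 4 lists for the Or, Gr and Ir families (green), other chemosensory and sensory lists (purple), markers of wing and other cell types (light grey) and all protein-coding genes (dark grey), with the count of genes beside each bar. The receptor families lie at 3.39% to 8.33% and all protein-coding genes at 45.5%, and all 6 wing markers have a peak in all 4 lists. Gene length is not taken into account.

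Neuron markers had a peak in all 4 lists at 1 of 6 genes, elav, where no list had a summit that was held by elav alone or nearest to it. The synaptic genes nSyb and Syt1 had none in any list, brp had a peak in both Osa-deGrad lists and in control 2, fne had one in both replicate 1 lists, and para had one in Osa-deGrad 1 alone. Of markers of other cells, both glia genes, 2 of 5 hemocyte, 3 of 4 muscle, 3 of 4 trachea and 0 of 3 fat body genes had a peak in all lists. Over all protein-coding genes the share was 45.5%. With exclusive assignment the counts were 1 glia, 1 hemocyte, 3 muscle, 3 trachea and 0 fat body genes, against 27.3% of all coding genes. The glia gene moody and the hemocyte gene crq were the ones lost. A peak at a marker gene does not measure its expression, and the part of these cells in the receptor gene peaks was not tested.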

How the data were processed

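The authors deposited 1 narrowPeak list per library on dm6, called on each library alone. The submitters' processing notes name, without roles, MACS2 2.1.2, Bowtie2 2.3.4.1, deepTools 2.4.1, SAMtools 1.9 and Picard 2.2.4. How peaks were called, and against which background, was not stated. From the deposited lists the summit's fold (a ratio to background), its −log10 q value and its offset were used. The deposited score column equals 10 times the −log10 q value without decimals and was not used further. A longer list finds weaker sites, so folds and ranks describe peaks within their own list.

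Gene starts and ends came from a RefSeq table whose header names Release 6 plus ISO1 MT (dm6). It gives no strand or exons, so promoters and exon positions were not assigned. Planned promoter sequences and motifs were not analysed here. Of 13962 protein-coding genes, the 13946 on 2L, 2R, 3L, 3R, 4, X and Y were used. Counting was done in Python 3.11.15 with pandas 2.3.3 and SciPy 1.17.1, after a check on simulated peaks. Peaks of different lists formed 1 region when they overlapped by at least 1 bp. Distances run from the gene body to the summit.

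The receptor genes, lists and role groups were chosen with earlier results of these data known. Named are receptor genes with a peak in all 4 lists or in both lists of 1 genotype alone, a list of well-studied receptors, and the genes holding or nearest to those summits. Alternatives were the window, whole-peak overlap, −log10 q minima of 5 and 10, lists of 13953 peaks each, exclusive assignment and leaving out each library. The −log10 p values in the deposited lists were not used. Coordinates are 1-based.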

Additional observations from a re-analysis of the deposited data

How the results depend on the processing

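Receptor genes with a peak in all 4 lists numbered 0 in gene bodies alone, 6 with 500 bp, 19 with 2 kb and 58 with 5 kb windows, and 3 with a −log10 q minimum of 10. All coding genes were then at 18.3%, 40.3%, 52.6%, 68.5% and 16.6%. They numbered 2 with exclusive assignment over coding genes, or over all annotated genes (chosen after seeing the data, as was the limit of 3000 bp). Per library, in the order Osa-deGrad 1, Osa-deGrad 2, control 1 and control 2, the counts were 1, 3, 2 and 5 in bodies, 31, 45, 35 and 47 with 2 kb, 72, 90, 84 and 94 with 5 kb, 6, 15, 5 and 16 with the minimum of 10, and 5, 7, 9 and 14 with exclusive assignment. Shares of all coding genes per library ran from 26.8% to 33.7% in bodies, 58.9% to 69.6% with 2 kb and 73.1% to 80.1% with 5 kb. They ran from 22.1% to 51.1% with the minimum of 10 and from 35.3% to 47.0% with exclusive assignment. Control 1 had 12 receptor genes with 500 bp (6.70%, against 46.9% of coding genes). Osa-deGrad 1 had 9 with a minimum of 5 (5.03%, against 47.1%).

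Receptor genes of both Osa-deGrad lists alone numbered 1 with 5 kb (0.559%), against 0.473% of coding genes. Those of both control lists alone numbered 0 in bodies and with the minimum of 10, against 0.954% and 0.430% of coding genes. They numbered 1 (0.559%) with 500 bp, whole-peak overlap or equal lists, against 0.459%, 0.488% and 0.523%. With 2 kb or exclusive assignment they numbered 3 (1.68%), against 0.523% and 0.774%. With 5 kb they numbered 4 (2.23%), against 0.409%. The share of summits at another gene was 55.4% with 500 bp, 71.6% with a minimum of 5 and 85.4% with 10, and the mean density 2.70 and 1.60 summits per 100 kb with those minima. The genotype difference turned to 0.5 for Or and for Gr genes with 2 kb, to 1.0 for Gr genes with whole-peak overlap and to 1.0 for Or genes with the minimum of 10.

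Leaving out Osa-deGrad 1, Osa-deGrad 2, control 1 and control 2 in turn gave 13, 10, 14 and 10 genes in all remaining lists. All coding genes were at 48.9%, 45.8%, 52.9% and 46.2%. In Osa-deGrad alone were 3, 0, 0 and 4 receptor genes (1.68%, 0%, 0% and 2.23%), against 2.75%, 1.66%, 1.59% and 8.30% of coding genes. In control alone were 2, 5, 6 and 6 (1.12%, 2.79%, 3.35% and 3.35%), against 0.817%, 3.90%, 1.96% and 1.32%. Fewer lists decide these patterns by construction. The difference ran from -9.5 (without Osa-deGrad 2) to 1.5 (without Osa-deGrad 1), with 0.5 without control 2; for Or genes from -3.5 to 1.5, with 0.5 without control 2, and for Gr genes from -3.0 to 1.0. With the replicate block it was -4.0 (exact sign-flip permutation p = 0.5, the smallest possible); the libraries share only a number. Causes were not tested. Without read counts, no depth limit can be given.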
